A study of Mus musculus with 36 samples.

Results

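The GATA transcription factors are 6 genes, Gata1 to Gata6, which were taken by name and not by any measured value. Earlier results of these data were known when the choice was made. All 6 were listed in each of the 11 RNA-seq libraries, in tables of 50600 genes for the sorted Day 3 cells and of 29267 genes for the other cells. The libraries came from BMP4 induced primed to naïve transition (BiPNT), in which mouse EpiSCs, epiblast stem cells of the primed state, are reset towards naïve pluripotency. The question put to them here was which members mark the c-Kit- branch and which respond to inhibition of DOT1L, the methyltransferase of histone H3 lysine 79.

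EpiSCs (3 libraries) were kept with activin A, bFGF and XAV939. Sorted Day 3 cells were c-Kit- (2 libraries) or c-Kit+ (2 libraries) after exposure to Stage 1 medium, which holds bFGF, LIF, CHIR99021, BMP4, the EZH2 inhibitor EPZ6438 and a DOT1L inhibitor, either EPZ5676 or SGC0946; which of the 2 these cells received is not given in the sources used here. Unsorted Day 3 cells with and without SGC0946 (1 library each) were named only by their titles; the study describes them as Day 3 cells with and without DOT1L inhibition, SGC0946 being the inhibitor. BV+SC+ Day 6 cells (2 libraries) came from a line with Blimp1-mVenus and Stella-ECFP transgenes and were sorted for both colours. They had 3 days of Stage 1 medium with EPZ5676 and EPZ6438, then a second medium to Day 6, and their labels name a different medium for each library (2iJi for replicate 1, GK15 for replicate 2), so medium and replicate cannot be told apart. The labels do not say whether same-group libraries came from separate cultures, so p-values measure only the spread between these samples, which may be technical.

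GATA factors bind DNA through a pair of zinc fingers at sites with the core GATA. Gata1, Gata2 and Gata3 form one branch of the family, best known from blood cells, and Gata2 and Gata3 also act in trophoblast, the lineage that makes the placenta. Gata4, Gata5 and Gata6 form the other branch, known from endoderm and heart, and Gata6 is an early determinant of primitive endoderm. GATA factors work with cofactors such as FOG-1, encoded by Zfpm1.

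On GRCm38, the build of the files, Gata1 lies at chrX:7959260-7978071 (minus strand), Gata2 at chr6:88193891-88207032 (plus), Gata3 at chr2:9857078-9890034 (minus), Gata4 at chr14:63198922-63271692 (minus) and Gata5 at chr2:180325133-180334699 (minus). Gata2 has separate start sites, and its promoters are shown beside that of Gata3 since these were the members with the most reads. Each sequence is from RefSeq (GRCm38.p6), runs 5′ to 3′ on the gene's strand and spans 250 bases before to 50 bases after the start site.
Gata2, chr6:88193641-88193940, plus strand: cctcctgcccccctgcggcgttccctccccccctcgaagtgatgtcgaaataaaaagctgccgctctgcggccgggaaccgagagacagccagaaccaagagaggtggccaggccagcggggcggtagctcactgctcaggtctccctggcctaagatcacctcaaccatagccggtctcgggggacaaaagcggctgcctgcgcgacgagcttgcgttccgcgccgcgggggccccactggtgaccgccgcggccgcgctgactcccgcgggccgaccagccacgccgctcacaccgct
Gata2, chr6:88198414-88198713, plus strand: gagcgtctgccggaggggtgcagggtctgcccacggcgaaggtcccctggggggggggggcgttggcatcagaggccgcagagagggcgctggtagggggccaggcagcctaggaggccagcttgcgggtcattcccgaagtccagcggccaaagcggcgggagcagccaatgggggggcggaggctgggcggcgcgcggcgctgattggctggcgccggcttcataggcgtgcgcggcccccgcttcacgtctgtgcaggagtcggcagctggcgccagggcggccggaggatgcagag
Gata3, chr2:9878551-9878850, minus strand: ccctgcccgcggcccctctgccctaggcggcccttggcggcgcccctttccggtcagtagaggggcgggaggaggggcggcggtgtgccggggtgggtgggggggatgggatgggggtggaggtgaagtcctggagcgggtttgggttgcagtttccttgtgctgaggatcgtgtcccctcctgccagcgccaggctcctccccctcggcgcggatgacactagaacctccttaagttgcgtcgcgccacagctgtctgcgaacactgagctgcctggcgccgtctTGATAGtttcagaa
Capitals mark a GATA motif, searched on both strands as AGATAA or the same letters with T first, G last or both. The Gata3 promoter holds 1 match, TGATAG, which begins at base 36 after the start site, and both Gata2 promoters hold 0. Of 32851 promoters of 300 bases, 29.8% hold a match, so neither pattern is unusual. The GC content was 69.3% and 73.7% in the Gata2 promoters and 67.3% in that of Gata3. Promoters of Gata1 and Gata5 also hold 0 matches, and those of Gata4 and Gata6 were not examined here.

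Each sorted library held 1726038 to 1841442 expected counts and each EpiSC library 2444211 to 3070115. The BV+SC+ libraries were deepest, at 14778809 and 18099059, and the library without SGC0946 held 4577685 and that with it 4776143. The labels were checked on the sorted markers. Kit, the receptor behind the sort, was at 4.86 and 8.91 normalized CPM in c-Kit- and at 271 and 267 in c-Kit+ cells, and Prdm1 and Dppa3, the genes behind the BV and SC colours, were at 181 ± 14.8 and 417 ± 19.9 normalized CPM (SD, n = 2) in BV+SC+ cells against 0.938 ± 0.339 and 0 (n = 3) in EpiSCs. Dot1l, whose product the inhibitor targets, had a count ratio of 1.01 with over without SGC0946 (95% interval 0.917 to 1.11), which checks nothing about enzyme activity.

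In EpiSCs the whole family was close to the counting floor, and in each Day 3 population Gata2 was the most abundant member. TPM is a transcript abundance given per length and so compares members. Gata2 was at 437 and 386 TPM in c-Kit- cells, at 59.5 and 24.3 TPM in c-Kit+ cells, at 95.1 TPM without and 82.1 TPM with SGC0946, at 15.2 and 4.16 TPM in BV+SC+ cells, and at 0.19, 0.41 and 0 TPM in EpiSCs. The c-Kit- libraries were the highest of the 11 and the EpiSC libraries the lowest. TPM was also rescaled over the 28910 genes that both tables list. The library with SGC0946 (82.4) then fell between the c-Kit+ libraries (82.7 and 34.2). In c-Kit+ replicate 1 RSEM gave Gata2 a shorter effective length, 1579 bases against 3087 in replicate 2, which raises its TPM. On CPM there was no overlap, with 139 with SGC0946 against 53.3 and 42.9 in c-Kit+ cells. Gata3 had another order. It was highest without SGC0946, at 54.4 TPM, followed by 28.0 TPM with SGC0946, 8.54 and 15.0 TPM in c-Kit- cells, 6.33 and 5.97 TPM in c-Kit+ cells, 1.13 and 0.81 TPM in BV+SC+ cells and 1.23, 0.20 and 0 TPM in EpiSCs. The ranges of BV+SC+ cells and EpiSCs overlapped, and no other neighbours in this order did. That overlap came from EpiSC replicate 1, where 2 counts on an effective length of 934 bases gave 1.23 TPM. On CPM both BV+SC+ libraries, at 2.03 and 1.44, were above the EpiSC libraries, at 0.651, 0.337 and 0.

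**Figure D1:**
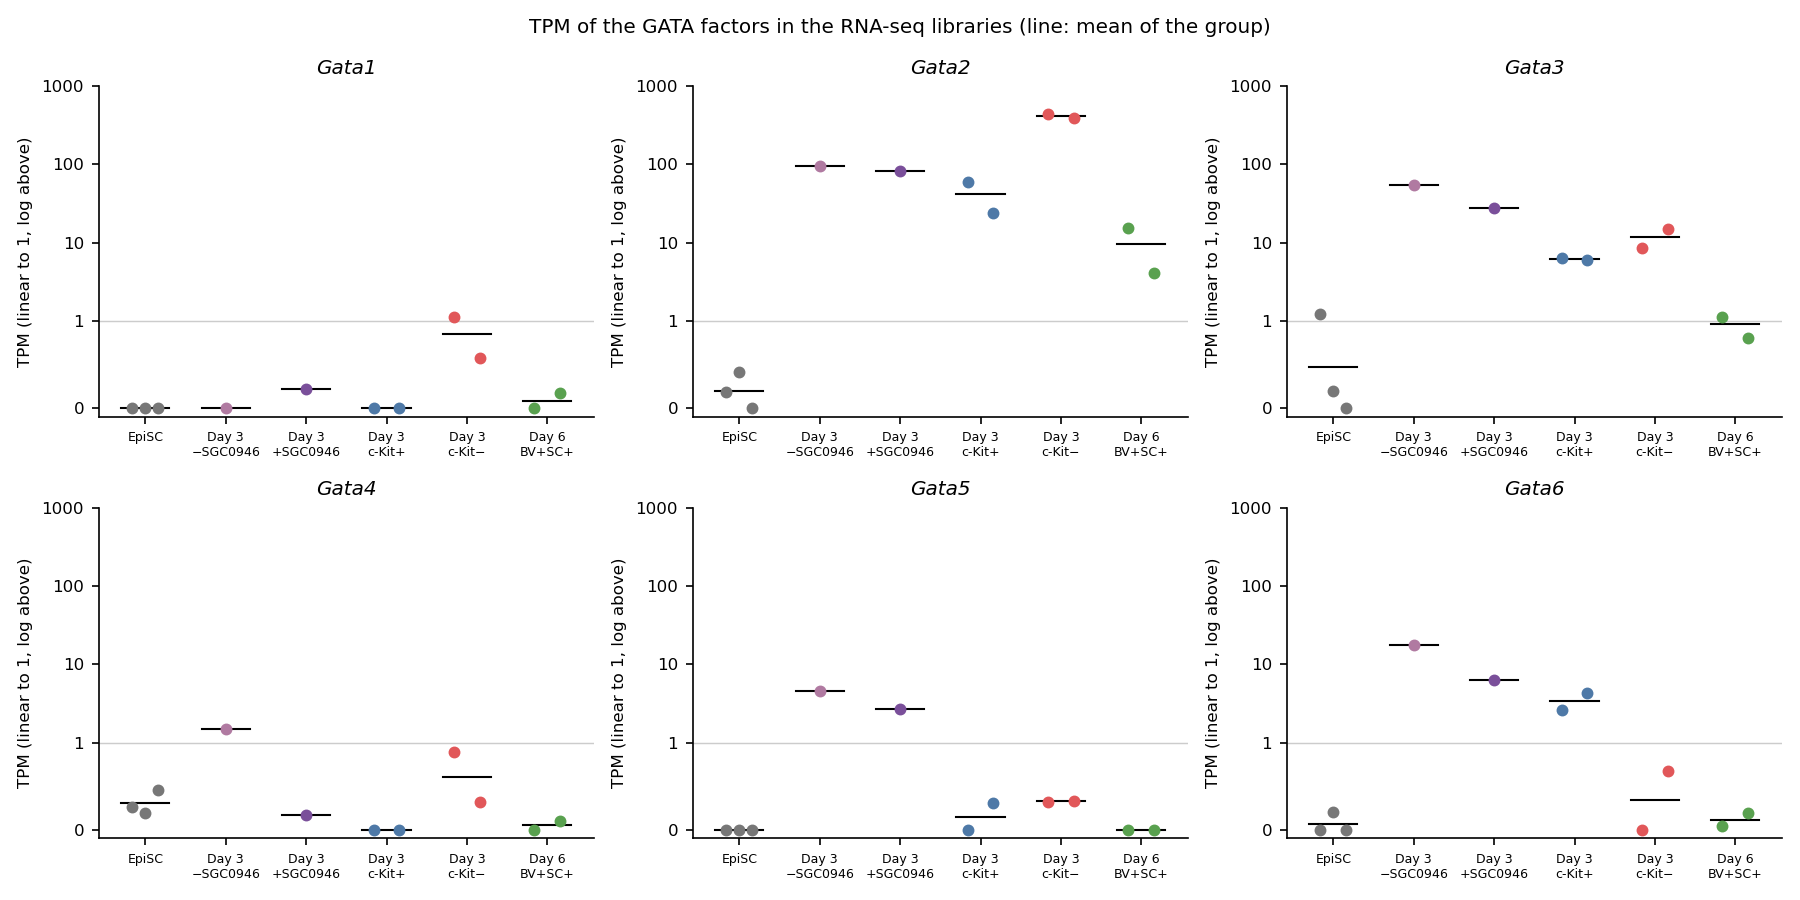
TPM of each GATA factor (y axis, linear up to 1 and logarithmic above) in the 11 libraries by condition (x axis); points are libraries and lines are group means. Gata2 reaches 437 TPM in c-Kit- cells, while Gata3, Gata5 and Gata6 are highest in unsorted Day 3 cells.

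Gata6 was also highest in unsorted cells, at 17.8 TPM without and 6.30 TPM with SGC0946, but among sorted cells it was seen mainly in c-Kit+ cells, at 2.62 and 4.26 TPM, against 0 and 0.67 TPM in c-Kit- cells. In BV+SC+ cells it was at 0.04 and 0.19 TPM and in EpiSCs at 0, 0.20 and 0 TPM, which overlapped with each other and with c-Kit- cells. Gata5 was at 4.55 TPM without and 2.70 TPM with SGC0946, from 35 and 22 counts. It had at most 1 count in any sorted library and 0 in every EpiSC and BV+SC+ library. A count of 0 over the 3 EpiSC libraries allows up to 0.354 CPM, and over the BV+SC+ libraries up to 0.0912 CPM, from counting error alone.

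Gata4 and Gata1 were barely detected. Gata4 had 9 counts (1.47 TPM) without SGC0946, 1 count with it and at most 3 counts in any other library. Gata1 had 2 counts (1.13 TPM) and 1 count (0.57 TPM) in c-Kit- cells, 3 counts in BV+SC+ replicate 2, 1 count with SGC0946 and 0 elsewhere. The sorted and unsorted Day 3 libraries differ in gene table, in the kit named for them and in medium as far as the sources state it, so their levels are set side by side and these differences cannot be told apart. Since the libraries are bulk samples, fewer cells of a type and less RNA per cell cannot be told apart either.

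The c-Kit- branch was marked by Gata2. The study already names Gata2 among the trophoblast markers high in c-Kit- cells at Day 3, so its direction is no independent evidence. Expected counts of Gata2 were 1122 and 938 in c-Kit- cells and 92 and 79 in c-Kit+ cells, or 606 and 522 against 54.4 and 44.0 normalized CPM, which is the count scaled to library size after TMM normalization. The 2 groups were far apart, with means of 564 ± 59.6 and 49.2 ± 7.35 normalized CPM (SD, n = 2 each). The log2 fold change of c-Kit- over c-Kit+ cells was 3.52 (SE 0.141), an 11.5-fold difference, with an adjusted p of 5.82e-07 by edgeR's quasi-likelihood test with Benjamini-Hochberg adjustment over 11018 genes. A call was a P-value under 0.05 before adjustment with a fold change over 2, which 13.6% of genes met as higher and 10.8% as lower in c-Kit- cells (12.9% and 9.98% with the adjusted p). Of the 6 members, 2 had enough counts to be tested, and 1 of them was called.

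**Figure D2:**
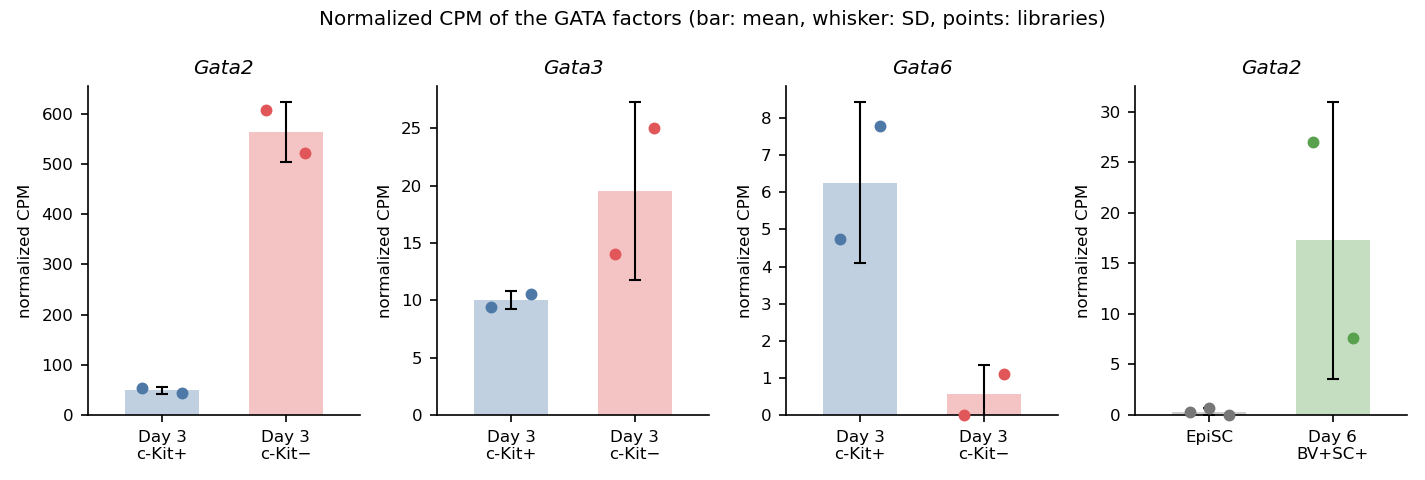
Normalized CPM (y axis, from 0) of Gata2, Gata3 and Gata6 in c-Kit+ and c-Kit- cells and of Gata2 in EpiSCs and BV+SC+ cells; bars are means, whiskers SD and points libraries. Mean Gata2 is 49.2 in c-Kit+ and 564 in c-Kit- cells, and the BV+SC+ libraries lie apart at 26.96 and 7.61.

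The length that RSEM assigned to Gata2 affects its TPM in c-Kit+ cells. The table of the sorted cells lists 5 Gata2 transcripts, among them retained-intron transcripts of 1723 and 841 bases, and the other table lists 2, of 3135 and 3571 bases. The effective length of Gata2 was 1579 bases in c-Kit+ replicate 1 and 3087 bases in replicate 2, so 92 and 79 counts became 59.5 and 24.3 TPM. In c-Kit- cells it was 2649 and 2540 bases. On mean TPM, the c-Kit- level was 9.81 times the c-Kit+ level.

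Gata3 was not called. It had 26 and 45 counts in c-Kit- and 16 and 19 in c-Kit+ libraries, or 14.1 and 25.0 against 9.46 and 10.6 normalized CPM, so both c-Kit- libraries lay above both c-Kit+ libraries. The log2 fold change was 0.96 (SE 0.390, edgeR quasi-likelihood test, adjusted p = 0.0762), a 1.94-fold difference that stayed just under the fold threshold. Without c-Kit- replicate 1 the log2 fold change was 1.32 (edgeR, adjusted p = 0.00821) and Gata3 was called, and without c-Kit- replicate 2 it was 0.52, so 1 library decides this call.

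Gata6 pointed the other way at low counts. It had 0 and 2 counts in c-Kit- cells and 8 and 14 in c-Kit+ cells, and both c-Kit+ libraries were higher. The filter on low counts removed it. From summed counts per library total, the ratio of c-Kit- to c-Kit+ cells was 0.0895 (exact 95% interval 0.0102 to 0.364, counting error only). With no filter, edgeR's quasi-likelihood test gave a log2 fold change of -3.33 (SE 0.967, adjusted p = 0.0140) and called it, where 7.57% of 18880 genes were called lower in c-Kit- cells and 9.75% higher. That call was lost without c-Kit+ replicate 2, at a log2 fold change of -2.92 (edgeR, adjusted p = 0.284). Without c-Kit- replicate 1 the value was -2.43 (edgeR, adjusted p = 0.0619), and without c-Kit- replicate 2 the c-Kit- arm was at 0 counts, so its fitted value of -6.49 is no bound. Gata1 and Gata4 each had 2 counts in c-Kit- replicate 1, 1 in replicate 2 and 0 in both c-Kit+ libraries, and Gata5 had 1 and 1 against 0 and 1, so no fold is given for them.

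The make-up of the family differed between the populations, as a description with no test. Gata2 took 97.6% and 95.8% of the summed GATA TPM in c-Kit- cells and 86.9% and 69.8% in c-Kit+ cells. Gata3 took 1.91% and 3.72% in c-Kit- libraries and 9.24% and 17.1% in c-Kit+ libraries, although its own TPM was above that of both c-Kit+ libraries in each c-Kit- library. Gata6 took 0% and 0.166% in c-Kit- cells against 3.83% and 12.2% in c-Kit+ cells. The sums were 447 and 402 TPM in c-Kit- and 68.5 and 34.8 TPM in c-Kit+ cells. Without SGC0946 the sum was 173 TPM, of which Gata2 took 54.9%, Gata3 31.4%, Gata6 10.3% and Gata5 2.63%. With SGC0946 the sum was 120 TPM and the shares were 68.7%, 23.4%, 5.27% and 2.26%. In EpiSCs the 6 members had 2 to 5 counts in all per library, too few for shares.

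**Figure D3:**
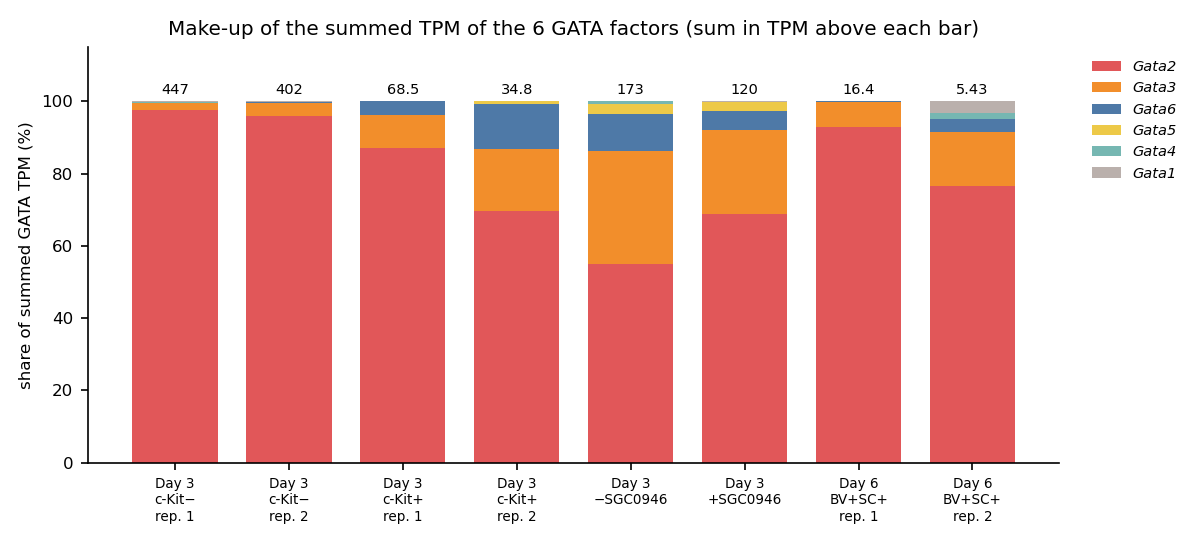
Share of the summed TPM of the 6 GATA factors (y axis, percent) taken by each factor in 8 libraries, with the sum in TPM above each bar; EpiSCs are left out for their low counts. Gata2 takes 97.6% and 95.8% in c-Kit- cells, and 54.9% without and 68.7% with SGC0946.

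Gata2 was higher in BV+SC+ Day 6 cells than in EpiSCs. Its expected counts were 408 and 134, against 1, 2 and 0 in EpiSCs, or 26.96 and 7.61 against 0.330, 0.675 and 0 normalized CPM. Both BV+SC+ libraries were above all EpiSC libraries, and they differed from each other by more than the EpiSC libraries did. The log2 fold change of BV+SC+ over EpiSCs was 5.55 (SE 0.866, edgeR quasi-likelihood test, adjusted p = 0.00112), with 17.2% of 11792 genes called higher and 17.8% lower (16.8% and 17.2% with the adjusted p). It was 4.35 without BV+SC+ replicate 1 and 6.16 without replicate 2, called in both cases. As EpiSCs held 3 counts in all, the ratio of summed counts was 46.6 with an exact interval of 15.9 to 227.

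Gata2 was the only member tested there. Gata3 had 30 and 26 counts in BV+SC+ cells and 2, 1 and 0 in EpiSCs, a ratio of 4.82 (exact interval 1.57 to 24.1), and edgeR with no filter gave a log2 fold change of 2.29 (SE 1.04, adjusted p = 0.0657), called on its unadjusted P-value, where 15.8% of 19598 genes were called higher and 12.3% lower. That call was lost with DESeq2 (adjusted p = 0.185). In edgeR with no filter it was also lost without EpiSC replicate 2 (adjusted p = 0.150), EpiSC replicate 3 (adjusted p = 0.222) or BV+SC+ replicate 1 (adjusted p = 0.0981). Gata6 had 1 and 6 counts against 0, 1 and 0, with a ratio of 1.81 (exact interval 0.232 to 81.4), so a difference was not detectable at this depth. Gata1, Gata4 and Gata5 had at most 3 counts in each of these libraries.

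Unsorted Day 3 cells without SGC0946 had far more GATA reads than EpiSCs. With 1 Day 3 library this is a description. Counts were 721 for Gata2, 365 for Gata3, 133 for Gata6 and 35 for Gata5, against 3, 3, 1 and 0 over the 3 EpiSC libraries together. The count ratio was 445 for Gata2 (exact interval 152 to 2165), 226 for Gata3 (76.6 to 1099) and 247 for Gata6 (43.5 to 9809), and at least 21.6-fold for Gata5 against 3 counts over the EpiSC group. Of 5 members above 1 TPM in some library, 4 were over 2-fold higher on the TPM + 1 scale and above every EpiSC library, as were 16.7% of 14586 genes, with 8.58% lower. The fifth, Gata4, had a ratio of 4.17 (1.16 to 18.5) from 9 against 4 counts. This comparison shares its EpiSC libraries with the BV+SC+ comparison and its Day 3 library with the inhibitor comparison.

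SGC0946, a DOT1L inhibitor, went with lower values of all 5 members above 1 TPM, by amounts that ranged from slight to over 2-fold. There was 1 library per condition, so the intervals cover counting error only, no replicate check exists and no p-value is given. Of 14038 genes above 1 TPM in at least 1 library, 49.1% had a lower TPM + 1 value with SGC0946, 3.45% were lower by over 2-fold and 6.33% higher by over 2-fold, and the median log2 ratio was 0.0071. Gata6 had 133 counts without and 50 with SGC0946, or 17.8 and 6.30 TPM. Its log2 ratio of TPM + 1 was -1.36, a value that 1.66% of the genes went below, and its count ratio was 0.360 (0.255 to 0.502).

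Gata3 had 365 counts without and 224 with SGC0946, or 54.4 and 28.0 TPM. Its count ratio was 0.588 (0.496 to 0.697). Its log2 ratio of TPM + 1 was -0.93, a value that 3.85% of the genes went below, so it was not past 2-fold on that scale. The effective length of Gata3 was 2676 bases without and 3003 bases with SGC0946, and longer lengths lower TPM at a given count. The study lists Gata3 and Gata6 among genes downregulated by DOT1L inhibition at Day 3, with a log2 fold change past 1. Its methods name EDASeq normalization, which was not used here. Gata2 had 721 counts without and 662 with SGC0946, a count ratio of 0.880 (0.791 to 0.979). Its log2 ratio of TPM + 1 was -0.21, a value that 24.9% of the genes went below. An interval wholly below 1, which high counts make easier to reach, was found for 10.0% of genes. Gata2, Gata3, Gata4 and Gata6 were among these genes. An interval wholly below 0.5 was found for 0.37% of genes, and no member was among those. Gata5, with 35 and 22 counts, had a ratio of 0.602 (0.337 to 1.06), which spans 1. Gata4 was past 2-fold with a log2 ratio of TPM + 1 of -1.08, but on 9 counts against 1, with a count ratio of 0.106 (0.00243 to 0.769).

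**Figure D4:**
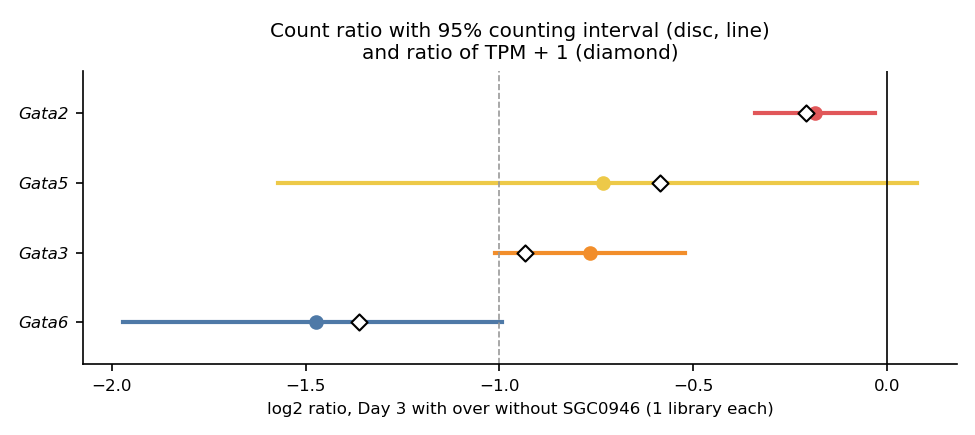
Log2 ratio (x axis) of Day 3 cells with over without SGC0946 for 4 GATA factors (y axis), as the count ratio with its exact 95% counting interval (disc and line) and as the ratio of TPM + 1 (diamond); the dashed line marks 2-fold lower. Gata2 lies near 0 at -0.18 on counts, and Gata6 is lowest at -1.47.

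The members also differed from each other in this ratio in these libraries, by intervals that cover counting error only. Libraries of the same group differed by more than counting error elsewhere, so such intervals are too narrow for a difference between conditions. Pairs among Gata2, Gata3, Gata5 and Gata6 gave 6 comparisons, each within the same pair of libraries, so library totals cancel. No allowance was made for the number of comparisons. Gata2 had 5.42 counts per Gata6 count without and 13.2 with SGC0946, a 2.44-fold difference (exact 95% interval 1.72 to 3.51). For Gata2 against Gata3 it was 1.50-fold (1.22 to 1.83) and for Gata3 against Gata6 1.63-fold (1.12 to 2.40). The 3 intervals that involve Gata5 spanned 1, and for Gata3 against Gata5 the interval was 0.541 to 1.80. By count ratio alone, Gata2, the most abundant member of the c-Kit- cells, changed least with SGC0946 of the members above 1 TPM. Gata6, with 8 and 14 counts in c-Kit+ cells against 0 and 2 in c-Kit- cells, changed most apart from Gata4. Gata5 was not separated from Gata2 (0.823 to 2.64) or from Gata6 (0.846 to 3.25). A link between branch and response to the inhibitor was not tested.

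Among GATA partners, 7 of 12 listed genes were tested in the sorted cells, of which 3 were higher and 2 lower in c-Kit- cells, with a median log2 fold change of -0.48 against -0.03 over all genes. Cbfa2t3, a corepressor of haematopoietic GATA complexes, was higher (log2 fold change 3.37, SE 0.236, edgeR adjusted p = 8.37e-06), and so was Zfpm1 (1.93, SE 0.142, edgeR adjusted p = 1.07e-05). Zfpm1 had 363 and 355 counts in c-Kit- and 96 and 84 in c-Kit+ cells. Runx1, a transcription factor of blood development, was higher (1.55), and the LIM-domain adaptors Lmo2 (-2.47) and Lmo4 (-1.41) were lower; Lmo4 was chosen after its values were seen. Zfpm2, which encodes FOG-2, had 0 counts in all sorted libraries, and Tal1 and Lyl1, partners of GATA factors in blood cells, had at most 1. With SGC0946, 1 of 8 partners above 1 TPM was past 2-fold, Lmo2 with a log2 ratio of 1.71 from 7 and 37 counts, and Zfpm1 was at -0.42. In BV+SC+ cells against EpiSCs, 3 of 6 tested were lower, Runx1, Lmo4 and Lmo2, and none was higher.

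Among other genes with a GATA-type zinc finger no member was called in the sorted cells. Of 8 genes, which include Trps1, a repressor, and the NuRD chromatin remodelling subunits Gatad2a, Gatad2b, Mta1, Mta2 and Mta3, 6 were tested in the sorted cells and 0 were called by edgeR or DESeq2, while 2 of them with an unadjusted P-value under 0.05, Gatad2b (log2 fold change -0.58) and Mta1 (-0.61), had edgeR adjusted p of 0.0164 and 0.00204 with a change under 2-fold. These 2 were chosen after their values were seen. With SGC0946, 1 of 8 was past 2-fold, Zglp1, a germ cell factor, from 1 and 6 counts. Of 7 tested in BV+SC+ cells against EpiSCs, Gatad1 was lower (-1.25) and Mta3 higher (1.07). Over all genes 17.2% were called higher and 17.8% lower. Mta3 differed widely between the BV+SC+ libraries, at 152 ± 79.4 normalized CPM (SD, n = 2) against 72.3 ± 4.25 in EpiSCs (n = 3).

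In the sorted cells, all 8 tested of 11 trophoblast markers were higher in c-Kit- cells, with a median log2 fold change of 2.48, and the largest were Krt7, a keratin (6.61, SE 0.407, edgeR adjusted p = 4.08e-06), Plac1, a placental gene (4.40), H19 (3.32) and Igf2 (2.52), the last 2 being imprinted genes. Part of these markers led the study to name the c-Kit- cells, so the list is no independent evidence of direction. Of 14 trophoblast transcription factors 12 were tested, 7 were higher and 3 lower, with a median of 1.78; DESeq2 called 9 of them in all. Tead4 (2.44), Hand1 (2.35) and Ascl2 (2.28) were higher. Eomes (-3.46), Cdx2 (-1.53) and Tfap2a (-1.40), the last 2 chosen after their values were seen, were lower, Tfap2a on its unadjusted P-value only (edgeR adjusted p = 0.0807); Eomes and Cdx2 are regulators of trophoblast stem cells that also act in the embryo. Elf5, another trophoblast stem cell factor, had 3 to 6 counts in each sorted library, and Prl3d1, Prl2c2 and Tpbpa, markers of mature trophoblast, had 0 counts in all 11 libraries.

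**Figure D5:**
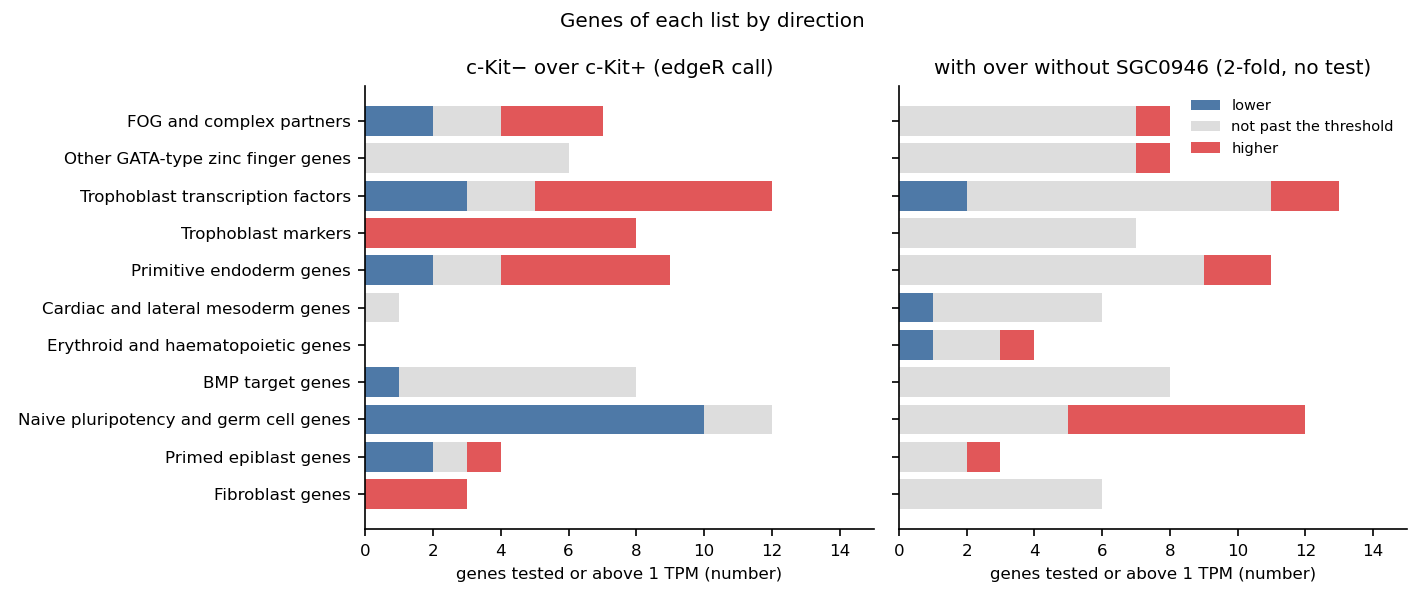
Number of genes (x axis) in each list around the GATA factors (y axis) that were lower, not past the threshold or higher, for c-Kit- over c-Kit+ cells (edgeR call) and for Day 3 cells with over without SGC0946 (2-fold, no test). All 8 tested trophoblast markers are higher in c-Kit- cells and 0 of 7 pass 2-fold with SGC0946.

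With SGC0946, 0 of 7 trophoblast markers above 1 TPM were past 2-fold, with a median log2 ratio of -0.27, and of 13 trophoblast transcription factors 2 were higher and 2 lower. Tfap2c, shared by trophoblast and germ cells, went from 235 to 727 counts (log2 ratio 1.54) and Eomes from 2 to 20 (1.35), while Tfap2a (-1.10) and Cdx2 (-1.01) were lower. The summed marker level was 16491 TPM without and 11620 TPM with SGC0946, most of it from Igf2 and Peg10. In BV+SC+ cells the sum was 623 and 243 TPM, higher in the library with more Gata2, against 207 to 240 TPM in EpiSCs. Igf2, Peg10, Phlda2, Krt8 and Krt18 had more counts in BV+SC+ replicate 1 than in replicate 2. H19 (100 and 436) and Krt7 (25.8 and 66) had fewer, and Plac1 was level at 1.65 normalized CPM. Of 6 markers tested there, 5 were called higher than in EpiSCs and 0 lower, against 17.2% and 17.8% of all genes. The part of these markers in the Gata2 level was not tested.

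Primitive endoderm is the setting best known for Gata6. Of 9 tested of 18, 5 were higher and 2 lower in c-Kit- cells, where Gata6 had 2 counts in all, with a median of 1.00. DESeq2 called 5 genes of this list, without Dab2 and Lama1. The higher ones were Col4a2 (log2 fold change 3.82, SE 0.177, edgeR adjusted p = 1.03e-06) and Col4a1 (3.44), which encode basement membrane collagen, Sox17 (3.01), a transcription factor of endoderm, Pdgfra (2.51), a growth factor receptor, and Sparc (1.00), a matrix protein. Sparc, just past 2-fold, was chosen after its values were seen, as were Dab2 (-1.99), an endocytic adaptor, and Lama1 (-1.48), a laminin chain, which were lower. Hnf4a, Afp, Ttr and Apoa1, markers of visceral endoderm, had 0 counts in all c-Kit- and c-Kit+ libraries. In the deeper BV+SC+ libraries Hnf4a had 4 and 20 counts, Afp 0 and 2, Ttr 0 and 19 and Apoa1 1 and 31. With SGC0946, 2 of 11 were past 2-fold and higher, Dab2 (66 to 116 counts, log2 ratio 1.22) and Amn (0 to 4 counts), and none was lower. The count ratio of Dab2 was 1.68 (1.23 to 2.31), short of 2-fold, so it passed on TPM and not on counts.

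Cardiac and lateral mesoderm genes had summed levels of 6.89 to 13.1 TPM in the sorted cells, where 1 of 11 was tested, Tbx20, a cardiac transcription factor, with 19 and 15 counts in c-Kit- and 30 and 26 in c-Kit+ libraries (log2 fold change -0.78, edgeR adjusted p = 0.112, not called). In unsorted cells their sum stood at 81.8 TPM without and 50.4 TPM with SGC0946. Foxf1, a transcription factor of lateral mesoderm, had 101 counts without and 22 with SGC0946 (log2 ratio -2.02) and 0 in all sorted libraries. Isl1 had 154 and 127 counts in the unsorted libraries and 1 to 3 in each sorted library, and Kdr, a receptor of vascular progenitors, had 182 and 190 against 0 to 8. Gata5 and Gata6 were also higher in the unsorted than in the sorted libraries, and the part of such cells in their levels was not tested. Nkx2-5 and Hand2, also on this list, had at most 1 count in any library.

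Erythroid and haematopoietic genes, the best known setting of Gata1 and Gata2, had summed levels of at most 22.2 TPM in any library. Of 12 genes, 0 passed the filter in the sorted cells, so none was tested. Summed levels were 5.58 to 16.4 TPM in sorted cells, 3.66 to 22.2 TPM in EpiSCs and BV+SC+ cells and 7.45 and 12.6 TPM in unsorted Day 3 cells, with Epor, the erythropoietin receptor, at 5 to 14 counts in sorted cells. Epor, the 1 gene of this list tested there, was lower in BV+SC+ cells than in EpiSCs (log2 fold change -4.65, SE 0.622, edgeR adjusted p = 0.000543). Klf1, an erythroid factor, had 0 counts in the sorted libraries and 14 and 20 in the BV+SC+ libraries. Pf4, a platelet gene, had 0 in all 11. Fibroblast genes were higher in c-Kit- cells in 3 of 3 tested, Thy1 (2.24), Col1a1 (1.58) and Col1a2 (1.37), with summed levels of 139 to 165 TPM against 44.5 to 55.5 TPM in c-Kit+ cells, while Dcn and Lum, which define fibroblasts, had at most 2 counts in any sorted library. Their part in the Gata2 difference was not tested.

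BMP4 was in the Stage 1 medium, and of 8 BMP target genes tested in the sorted cells 1 was called, Msx1 (-1.87), with a median of -0.44. In Day 3 cells without SGC0946, 7 of 8 were over 2-fold above EpiSCs, led by Msx2 (log2 ratio of TPM + 1 of 7.49) and Msx1 (7.08), and with SGC0946 0 of 8 were past 2-fold. Of naive pluripotency and germ cell genes, 10 of 12 tested were lower in c-Kit- cells, with a median of -3.84. Nanog had 1 and 0 counts against 274 and 253, and Sox2 0 and 3 against 407 and 466. With SGC0946, 7 of 12 were past 2-fold and higher, among them Pou5f1 (log2 ratio 3.01), Nanog (2.97) and Klf2 (2.88), and in BV+SC+ cells 12 of 14 were higher than in EpiSCs. The study used some of these genes to name the branches, so the list is no independent evidence of direction. Of 5 genes listed as primed, 4 were tested in the sorted cells, and 1 was higher and 2 lower in c-Kit- cells. Pou3f1 (3.45) was higher, T (-8.55) and Otx2 (-5.39) were lower, and Dnmt3b (-0.09) was not called. T had 6, 1 and 4 counts in EpiSCs against 183 and 268 in c-Kit+ cells, so it was low in the primed cells here. The study places T among genes of mesoderm-like precursors of primordial germ cells.

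Genes that overlap a GATA factor had few reads. Gm13256, 4930412O13Rik and 9230102O04Rik overlap Gata3, Gata5os overlaps Gata5, and 1010001N08Rik overlaps Gata6, and Gm38708 starts within 5 kb of Gata2. In the sorted libraries 4930412O13Rik had 2 counts in c-Kit- replicate 2 and the rest had 0. In the unsorted libraries 4930412O13Rik had 11.2 counts without and 5 with SGC0946, and each other gene had at most 4. Gata3 shares 78 bases on the same strand with 9230102O04Rik and 103 bases on the opposite strand with Gm13256, so a few of its reads could be divided between them. No member shared such a stretch with another member.

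Over the 11 libraries, the genes whose log2(TPM + 1) was most like that of Gata2 were Sct (Pearson r = 0.991), Rgma (0.981) and Aebp1 (0.978), among 10858 genes with a mean of at least 5 TPM. Sct, which encodes the hormone secretin, was at 452 and 289 TPM in the c-Kit- libraries, 77.4 and 17.9 TPM in the c-Kit+ libraries and 0 in EpiSCs, rescaled over the genes both tables list. For Gata3 they were Wfikkn1 (0.979), Irx3 (0.976) and Dlx2 (0.967). For Gata6 they were Hoxa9 (0.982), Hoxc4 (0.957) and Col4a5 (0.943), and for Gata5 Hoxb9 (0.993), Nog (0.975) and Tbx2 (0.967). Hoxa9, a homeobox gene of posterior identity, had 0 TPM in both c-Kit- libraries, 11.4 and 16.4 TPM in the c-Kit+ libraries, 167 without and 29.8 with SGC0946. For Gata4 (Bex1, Pigx and Apbb1, 0.822 to 0.858) and Gata1 (Ankrd13a, Arpc4 and Anxa6, 0.953 to 0.961) the values rest on a few reads. The points share gene table, kit and condition within each set of libraries, so these values are a description.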

How the data were processed

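RNA-seq of 11 libraries was used. The other 25 samples (single-cell RNA, chromatin accessibility and ChIP) were not analysed here. Per the labels and methods, the authors aligned reads with Bowtie2 and estimated values per gene with RSEM (1.3.1 in the submitters' processing notes of 7 libraries). The deposited expected counts are not normalized. The deposited TPM values were computed by RSEM from the expected counts and effective lengths, and the deposited FPKM values were not used. Transcript lengths, in bases, were deposited by the authors as other values. The methods name an mRNA kit and the labels of the unsorted, EpiSC and BV+SC+ libraries a total RNA kit with ribosomal RNA removed, and neither states strand in counting. A reference of the named release, GENCODE M13, was not used here; symbols, coordinates and transcripts came from GENCODE M21 on GRCm38, which named 99.56% and 98.25% of the identifiers, and promoters from RefSeq.

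Expected counts were rounded and tested within each table with edgeR 4.0.16 in R 4.3.3 (filterByExpr, TMM, glmQLFit and glmQLFTest), on all genes and without a replicate block. Calls used P under 0.05, taken as unadjusted, and a fold over 2. For SGC0946, log2 ratios of TPM + 1 were computed on genes over 1 TPM in at least 1 library, with exact conditional (Clopper-Pearson) 95% intervals for count ratios in SciPy 1.17.1; reads are not independent molecules, so intervals and floors (3 counts) cover counting error only. Shared sequence (98% over 75 bases) was found with BLAST+ 2.17.0. Scripts were tested on simulated data. Replicates differed by more than sampling noise (chi-square over degrees of freedom 2.01 to 45.3), so none was counted as a duplicate. Named genes were the 6 members, overlapping or neighbouring genes, up to 4 called genes with the largest change per list and comparison, Kit, Prdm1, Dppa3 and Dot1l, and 3 genes most like each member. The members and lists were chosen with earlier results of these data known. Alternatives were DESeq2 1.42.0, RLE factors, other filters, an adjusted threshold, a replicate block, other pseudocounts and scalings, and each replicate left out.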

Additional observations from a re-analysis of the deposited data

How the results depend on the processing

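Gata2 was called in the sorted cells under each alternative, with log2 fold changes from 3.40 to 3.71, and in BV+SC+ cells under each alternative that tested it, from 4.35 to 6.52; at least 10 counts in every library left 0 members to test there, by construction. The number of members called in the sorted cells, 1, became 2 with no filter, with DESeq2 and with the replicate block and no filter, since Gata6 is then tested (DESeq2 adjusted p = 0.126), and ranged from 1 to 3 when a library was left out, filtered or not. In BV+SC+ cells the number, 1, became 2 with no filter, which calls Gata3, and ranged from 1 to 2 with a library left out. Without BV+SC+ replicate 2 and with no filter, Gata6 turned from 0.85 (log2 ratio of summed counts) to -0.63, on 1 count in each group. The lone library left in an arm is assumed to vary like the other groups. With SGC0946 the number past 2-fold, 2, became 1 with a pseudocount of 5 TPM and with over 1 TPM in both libraries, where Gata4 is lost, and Gata6 stayed past 2-fold, from -1.01 to -1.48. Gata3 stayed short of 2-fold, from -0.75 to -0.97. The share of Gata2 ranged from 95.8% to 97.6% in c-Kit-, from 69.8% to 86.9% in c-Kit+ and from 76.6% to 92.9% in BV+SC+ cells with a library left out. Of the 3 genes most like Gata1 and Gata4, 0 stayed with TPM as deposited, and of those most like Gata2 and Gata3, 2 did.

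Replicate numbers come from the labels, which do not call them pairs, although same-numbered sorted libraries share a date-like string in the names of their deposited tables. Deviations of same-numbered libraries from their group means correlated at 0.114 in the sorted cells. With 2 libraries per group both pairs give the same value by construction, so it is not an agreement of 2 pairs. In BV+SC+ cells and EpiSCs the values were -0.035 and 0.0037. With the replicate block the log2 fold change of Gata2 was 3.52 in the sorted cells and 4.94 in BV+SC+ cells, that of Gata3 in the sorted cells was 0.93, and no call of the filtered tests changed. With the block and no filter, Gata3 was no longer called in BV+SC+ cells (log2 fold change 1.82, adjusted p = 0.355 against 0.0657), so 1 member was called there. Low depth limits Gata1, Gata4 and Gata5 throughout. The block without a filter and the left-out libraries without a filter were chosen after seeing the data.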
